A study of Mus musculus with 30 samples.

Results

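The mouse zinc finger genes named Zfp900 to Zfp999 were taken by symbol: a gene was a member where its name in the gene tables of the time course, or in the count table of the washout, was Zfp9 followed by any pair of digits. The rule gave 66 genes of 55528 gene names. The washout counts held 64 of them, and 65 were in the time-course tables. Zfp939, a transcribed pseudogene, was in the washout counts alone. Zfp997 and Zfp998 were in the time-course tables alone, since the count table lists the same loci under the older names Gm10324 and 2410141K09Rik. In GENCODE M21 the members lay on 12 chromosomes, and 65 had a protein-coding transcript.

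Most genes of this kind encode KRAB zinc finger proteins. An array of C2H2 zinc fingers reads DNA, and the KRAB box recruits the corepressor TRIM28 (KAP1), which brings in the H3K9 methyltransferase SETDB1 and HP1 proteins. In embryonic stem cells this route keeps endogenous retroviruses and other retroelements silent and protects imprinted marks. The genes arose by repeated local duplication, so they sit in tandem clusters with close relatives beside them.

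The libraries measure nascent RNA by TT-seq, in which cells take up 4-thiouridine for 5 min and only the labelled RNA is sequenced, in E14 mouse embryonic stem cells carrying osTIR1. The tagged cells also carry mini-AID and V5 on Supt16, which encodes the SPT16 subunit of the histone chaperone FACT, so that 500 nM 3-indoleacetic acid (IAA) leads to loss of the protein, and untagged cells carry osTIR1 alone. The 22 libraries of the time course form 11 pairs (untagged cells, sampled at 0 h or in IAA for 3, 6 or 12 h, and SPT16-AID clones at 0 h and in IAA or the ethanol vehicle, EtOH, for 3, 6 or 12 h). The washout has 8 libraries: SPT16-AID lines 10E and 11D kept 12 h in IAA or EtOH and then 24 h without it, with 2 libraries per line and treatment. Time-course groups rest on the sample titles, because other label fields contradict them, and the titles' Clone1 and Clone2 are not tied to 10E and 11D in the labels. Each line is a clone, and the labels do not say that libraries of one line came from separate cultures, so a p-value here sets a difference against the spread of these libraries, which may be technical. A degron acts on the protein, so Supt16 RNA does not check the depletion.

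Washout libraries held 6547992 to 16554314 counts. EtOH libraries (11068135 to 16554314) were deeper than IAA libraries (6547992 to 10978586), and the 18S ribosomal RNA locus took 5.73% to 9.27% of counts in EtOH and 20.8% to 29.3% in IAA. Of 10 stem cell markers 9 were detected, with a summed level of 142 to 194 CPM per kb (counts scaled to a common library size, per kb of gene body) in EtOH and 136 to 161 in IAA, and Sox2 was at 0 in all 8. Because ambiguous read pairs are left out of these counts, a 0 does not show that Sox2 is silent. Its cause was not tested. The 8 markers of 2-cell-like cells, all detected, summed to 0.433 to 0.735 in EtOH and 2.63 to 7.47 in IAA. Summed markers of primitive endoderm (5 of 5 detected), trophoblast (4 of 4), mesoderm and neural cells (4 of 5, Sox1 at 0) and fibroblast feeders (5 of 5) reached at most 1.48 in any library. The part of depth, ribosomal reads and 2-cell-like markers in the results below was not tested. Fewer cells of a type and less RNA per cell cannot be told apart in these bulk libraries.

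The members shared sequence features that the rule did not use. In the longest open reading frame of each of the 65 coding members, 60 held at least 1 C2H2 finger pattern, the median was 11 patterns, and the highest was 21, in Zfp974. A pattern of conserved residues of the KRAB box was found in 51. Gene bodies ran from 3.29 kb (Zfp997) to 109 kb (Zfp943), with a median of 22.8 kb, of which a median of 13.3% was exonic. Since whole genes were counted, most of the counted span of a typical member was intron.

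In 4 groups of neighbours, here called clusters, at least 4 members lay no more than 1.5 Mb apart, and other zinc finger genes lie among them. The chromosome 4 cluster held 16 members (mm10 chr4:145510759-147848366), the chromosome 17 cluster 10 (chr17:21567008-22867134), the chromosome 2 cluster 10 (chr2:175372436-178078476) and the chromosome 7 cluster 4 (chr7:42579783-43192109). The other 26 members lay outside these clusters. Similarity to other genes differed between clusters: the median share of a member's 50-base transcript words that also occur in another gene was 89.0% on chromosome 2, 61.3% on chromosome 4, 21.2% on chromosome 7 and 9.41% on chromosome 17. Over all members, 19 shared more than 50% of their words and 18 less than 5%. Such copies are uncertain, because read pairs that map to more than 1 place are left out by the default of the counting program. Pairs in a span shared with another gene on the same strand are left out too, and 16 members have such a span.

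The starts of some members carry a common block. RefSeq promoters (GRCm38.p6, 250 bases before to 50 after the start) were found for 54 members, and the 12-base word found in the largest number of them was ctgccagtcaga. It stood in 16 of the 54 (29.6%), always in the direction of the gene, against 0.198% of all 32851 promoters searched on both strands. Of the other genes named Zfp1 to Zfp899, 1 of 252 held it. A gene was counted if any of its promoters held the word, while the share of all promoters is per promoter. The word was picked for being shared, so its frequency is a description. It stood in 9 of 9 members with a promoter on chromosome 2, in 4 of 4 on chromosome 7, and in Zfp950, Zfp951 and Zfp932, but in 0 of 10 on chromosome 4 and 0 of 10 on chromosome 17. In these 16 genes it began 9 to 89 bases before a start. All 18 of their promoters with the word also held CCAATCA, a form of the CCAAT box that the factor NF-Y is known to bind, and in all 18 the CCAATCA began 23 bases before the word.

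The promoters of the 4 members that both hold this word and were lower after the washout (values below) are shown 5′ to 3′ on the strand of the gene, as taken from RefSeq. Capitals mark CCAATCA and then the shared word. They lie at chr2:177464492-177464791 (Zfp970, plus strand), chr7:42592496-42592795 (Zfp977, minus strand), chr7:42692669-42692968 (Zfp975, minus strand) and chr7:43177340-43177639 (Zfp936, plus strand, a start inside the gene as GENCODE draws it).
Zfp970: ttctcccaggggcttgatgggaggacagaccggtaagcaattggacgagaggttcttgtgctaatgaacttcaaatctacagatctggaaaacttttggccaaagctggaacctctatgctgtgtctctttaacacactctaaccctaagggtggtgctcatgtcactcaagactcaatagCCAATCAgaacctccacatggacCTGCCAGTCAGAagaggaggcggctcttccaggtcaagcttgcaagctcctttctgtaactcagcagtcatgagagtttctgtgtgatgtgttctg
Zfp977: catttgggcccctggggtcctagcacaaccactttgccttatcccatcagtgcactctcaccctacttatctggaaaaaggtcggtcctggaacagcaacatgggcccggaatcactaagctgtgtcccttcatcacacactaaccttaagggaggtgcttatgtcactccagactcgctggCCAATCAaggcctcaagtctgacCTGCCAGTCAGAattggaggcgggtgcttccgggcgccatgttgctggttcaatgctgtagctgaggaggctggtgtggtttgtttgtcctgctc
Zfp975: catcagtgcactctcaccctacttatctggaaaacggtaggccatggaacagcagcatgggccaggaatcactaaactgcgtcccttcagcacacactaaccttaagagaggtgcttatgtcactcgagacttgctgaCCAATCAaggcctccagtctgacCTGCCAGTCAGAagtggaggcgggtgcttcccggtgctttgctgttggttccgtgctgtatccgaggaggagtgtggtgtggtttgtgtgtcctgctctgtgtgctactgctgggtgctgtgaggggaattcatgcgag
Zfp936: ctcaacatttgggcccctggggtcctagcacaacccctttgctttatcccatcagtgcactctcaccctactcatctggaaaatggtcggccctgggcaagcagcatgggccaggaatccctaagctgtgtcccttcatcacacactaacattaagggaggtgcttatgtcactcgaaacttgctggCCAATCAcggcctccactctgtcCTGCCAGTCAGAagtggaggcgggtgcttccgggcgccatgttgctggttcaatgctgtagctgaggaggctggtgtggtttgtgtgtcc
Over aligned bases the 3 chromosome 7 promoters were 88.4% to 92.9% identical to each other and 69.8% to 71.8% identical to that of Zfp970 on chromosome 2. CCAATCA on either strand was in 55.6% of the 54 members, 16.3% of other Zfp genes and 7.82% of all promoters. The TATA word TATAAA was in 0 of the 54 members, 9.92% of other Zfp genes and 13.6% of all promoters, also counted on both strands. In the same order, CCAAT was in 75.9%, 48% and 37.4%, and the ETS-type word CCGGAAG in 25.9%, 23% and 8.86%. The YY1-type word GCCATNTT, where N is any base, was in 9.26%, 14.3% and 6.05%. Members and other Zfp genes were again counted by gene, and the background by promoter. A match is a description of letters and not of a bound site.

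In the washout counts, levels of the 54 members that passed the low-count filter ran from 0.0518 to 5.89 CPM per kb, with a median of 0.817 against 0.920 over all genes tested. Their totals over 8 libraries were 124 to 27337 counts. The remaining 10 were not tested. Zfp965, Zfp966, Zfp967, Zfp968 and Zfp969 on chromosome 2 and Zfp953 had 0 counts in all 8 libraries. The first 5 share 89.5% to 100% of their 50-base words with other genes, so reads from them may be discarded as ambiguous. Zfp953 overlaps Gm28041 and Gm28044 on its strand, so its reads may be discarded too. A 0 in any of these genes does not show that it is silent. Zfp935, Zfp957, Zfp963 and Zfp973 had counts but too few to test. Zfp957 had 0 or 1 in each library. Zfp935, Zfp963 and Zfp973 overlap another gene on their strand, so reads may be lost there as well.

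The 10 most abundant members per kb were, in order, Zfp961, Zfp990, Zfp977, Zfp958, Zfp980, Zfp985, Zfp930, Zfp954, Zfp951 and Zfp975. Zfp961, a gene on chromosome 8 with 0% of its 50-base transcript words shared, led at 6.33, 5.51, 6.81 and 6.87 CPM per kb in EtOH (10E library 1, 10E library 2, 11D library 1, 11D library 2) and 4.69, 4.76, 5.80 and 6.32 in IAA. Its lowest library lay below the highest of Zfp990 (5.26) and Zfp977 (4.98), so the ranges of the first 3 overlapped. From Zfp958 down to Zfp975 each neighbouring pair overlapped too: EtOH means were 3.04 ± 0.744 for Zfp958, 2.90 ± 0.624 for Zfp980, 2.71 ± 0.644 for Zfp985, 2.41 ± 0.271 for Zfp930, 2.66 ± 0.513 for Zfp954, 2.35 ± 0.982 for Zfp951 and 2.45 ± 0.433 for Zfp975 (SD, n = 4). The 10 came from the chromosome 4 and 7 clusters and from outside the clusters.

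**Figure D1:**
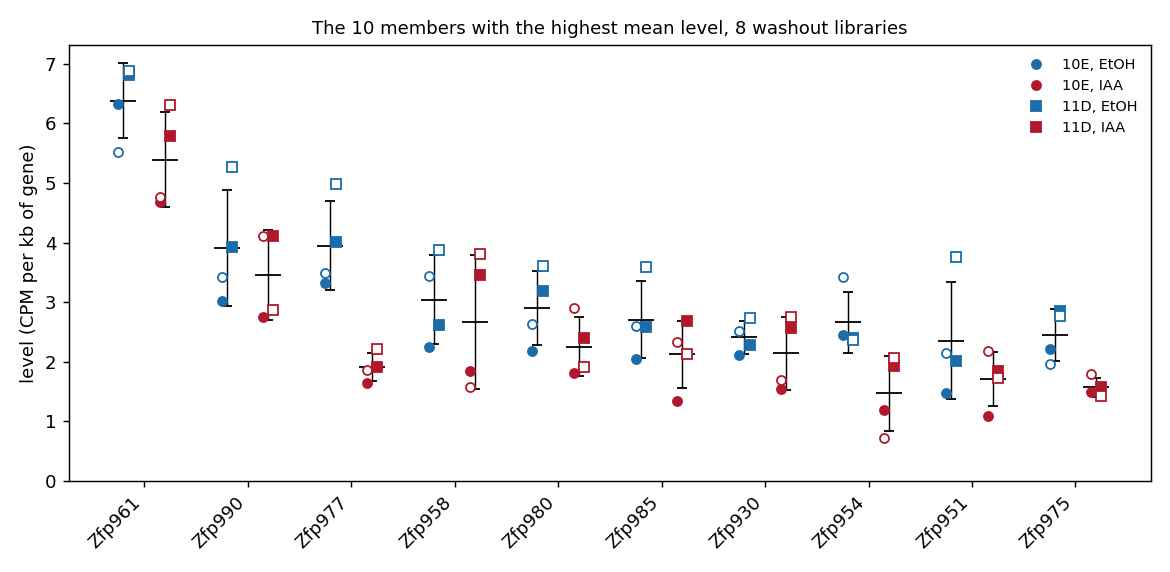
Levels of the 10 most abundant members in each of 8 washout libraries, in CPM per kb of gene body. Circles are line 10E and squares line 11D, filled for library 1 and open for library 2; dashes and bars are the mean and SD of 4 libraries. Zfp961 was highest at 4.69 to 6.87, and Zfp977, Zfp954 and Zfp975 were the ones whose IAA and EtOH points did not overlap.

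After IAA and washout, 6 of the 54 members tested were lower than in EtOH and 0 were higher (edgeR quasi-likelihood test, Benjamini-Hochberg adjusted p under 0.05). That is 11.1% of the members, against 7.6% of all 15110 genes lower and 8.83% higher. The median log2 fold change was -0.38 over the members, -0.05 over all genes and -0.21 over the 276 tested genes Zfp1 to Zfp899, of which 33 were lower and 7 higher. Of the 54, 52 had a negative sign, against 53.6% of all genes. Without both EtOH libraries numbered 2, a setting chosen after seeing the data, 37 of the 54 had one, against 50.8% of all genes, and the member median was -0.23. In 9, each IAA library lay below each EtOH library (Zfp931, Zfp934, Zfp936, Zfp941, Zfp954, Zfp970, Zfp971, Zfp975 and Zfp977). All IAA libraries lay below all EtOH libraries for 13.1% of all genes, so 9 of 54 stands near the background. At an unadjusted p under 0.05, 15 of 54 members were lower and 0 higher, beside 16.6% and 15.7% of all genes. DESeq2 called 8 of 57 lower and 0 higher, beside 7.14% and 9.67% of all genes.

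The chromosome 7 cluster held 3 of the 6. Zfp977, with 11 finger patterns and a KRAB pattern, measured 3.32 and 3.49 CPM per kb in 10E EtOH, 4.01 and 4.98 in 11D EtOH, 1.64 and 1.87 in 10E IAA and 1.92 and 2.21 in 11D IAA. Every IAA library was below every EtOH library, with means of 3.95 ± 0.746 and 1.91 ± 0.234 (SD, n = 4) and a log2 fold change of -0.99 (SE 0.18, edgeR adjusted p = 0.00342). Zfp936, at chr7:43114229-43192109, repeated this with 1.46, 1.39, 1.80 and 2.03 in EtOH and 0.699, 0.862, 0.894 and 0.958 in IAA (log2 fold change -0.91, SE 0.17, edgeR adjusted p = 0.00513). These 2 members kept their call without any 1 of the 8 libraries, within each line alone (edgeR adjusted p = 0.0227 and 0.0479 for Zfp977, 0.0394 and 0.0488 for Zfp936, in 10E and 11D) and without both EtOH libraries numbered 2.

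Zfp975 stood at 2.22, 1.96, 2.86 and 2.77 CPM per kb in EtOH and at 1.495, 1.80, 1.58 and 1.42 in IAA. The groups did not overlap, but the gap was narrower, with a log2 fold change of -0.58 (SE 0.17, edgeR adjusted p = 0.0358). The call rested on single libraries: the edgeR adjusted p was 0.0983 without 10E IAA library 1, 0.0901 without 11D EtOH library 1, 0.0667 without 11D EtOH library 2, 0.0998 without 11D IAA library 1 and 0.0802 without 11D IAA library 2, and 0.106 with a replicate block of line and library number. Within 10E alone the log2 fold change was -0.24 and within 11D alone -0.86 (edgeR adjusted p = 0.567 and 0.0810). Zfp976, the other member of the cluster, had overlapping groups (1.36, 1.14, 1.73 and 1.98 in EtOH, 0.798, 1.29, 1.16 and 0.943 in IAA; log2 fold change -0.51, SE 0.21, edgeR adjusted p = 0.116). The median over the 4 was -0.74.

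The other 3 members that were lower lay elsewhere. Zfp970, in the chromosome 2 cluster, had 0.745, 0.758, 0.720 and 0.972 CPM per kb in EtOH and 0.450, 0.417, 0.238 and 0.470 in IAA, without overlap (log2 fold change -0.97, SE 0.26, edgeR adjusted p = 0.0244). The edgeR adjusted p was 0.0577 without 11D EtOH library 2 and 0.0670 without 11D IAA library 1, and the log2 fold changes were -0.69 within 10E and -1.21 within 11D, neither past the threshold. Its neighbours Zfp971 (log2 fold change -0.75, edgeR adjusted p = 0.0660) and Zfp931 (-0.83, 0.0532) also had groups without overlap but missed the threshold; they were singled out after their values were seen.

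Zfp934 measured 0.131, 0.201, 0.164 and 0.265 in EtOH and 0.0619, 0.104, 0.0994 and 0.105 in IAA (log2 fold change -0.97, SE 0.25, edgeR adjusted p = 0.0219). It overlaps Zfp935 on the same strand on chromosome 13, so pairs in the shared span are assigned to neither. The level is still divided by the whole gene body, so it understates Zfp934 beside other members by an amount not measured here. The edgeR adjusted p was 0.0540 without 10E EtOH library 2, 0.0644 without 10E IAA library 1 and 0.0545 without 11D EtOH library 2. The log2 fold changes were -0.89 within 10E and -1.02 within 11D, neither past the threshold.

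Zfp941, at chr7:140807449-140822178 and far from the chromosome 7 cluster, had 1.86, 1.46, 2.45 and 1.60 in EtOH and 1.07, 0.801, 1.06 and 1.38 in IAA (log2 fold change -0.71, SE 0.21, edgeR adjusted p = 0.0396). It shares its strand with Gm45785. Leaving out 10E EtOH library 1, 10E IAA library 1, 10E IAA library 2, 11D EtOH library 1 or 11D IAA library 1 raised the edgeR adjusted p to 0.0704, 0.0898, 0.103, 0.110 and 0.0954, and the replicate block of line and library number gave 0.0696. Its log2 fold changes were -0.73 within 10E and -0.67 within 11D, again not past the threshold. Over all members, 3 were lower without 10E IAA library 1 and 3 without 11D EtOH library 2, with no share of all genes given for these fits.

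**Figure D2:**
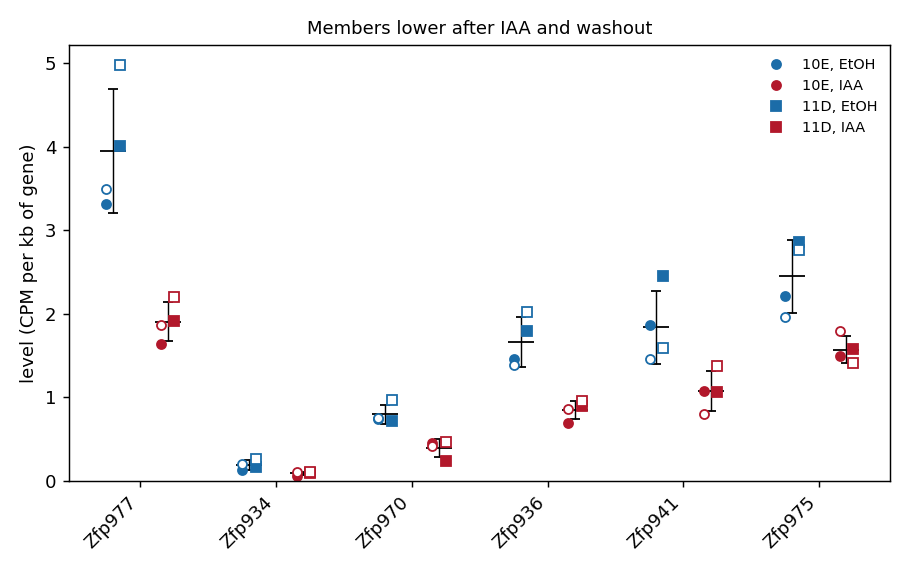
Levels in CPM per kb of gene body of the 6 members lower after IAA and washout, by library. Circles are line 10E, squares line 11D, filled for library 1 and open for library 2, with the mean and SD of 4 libraries; for each gene all IAA points lie below all EtOH points.

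In the authors' deposited table of the washout, 9 members were past an adjusted p of 0.05 with a negative sign and 0 with a positive one, beside 7.05% and 8.96% of all genes in that table. They were the 6 above with Zfp931 (log2 fold change -0.84, adjusted p 0.0357 in the authors' deposited table), Zfp945 (-0.72, 0.0305; same table) and Zfp954 (-0.84, 0.0388). Zfp954, a single gene on chromosome 7, showed groups without overlap (2.45, 3.43, 2.39 and 2.37 in EtOH, 1.19, 0.728, 1.92 and 2.06 in IAA), but edgeR gave it an adjusted p of 0.0796 (log2 fold change -0.79, SE 0.29). In line 10E alone its log2 fold change was -1.53 (edgeR adjusted p = 0.00103), in line 11D -0.20 (0.731), and without 11D IAA library 2 the edgeR adjusted p was 0.0435.

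In the chromosome 4 cluster the EtOH libraries differed among themselves. Zfp992 measured 1.01 and 2.39 CPM per kb in the EtOH libraries 1 and 2 of line 10E and 1.13 and 5.13 in those of line 11D, with 0.647, 1.26, 1.51 and 0.831 in IAA. Its log2 fold change was -1.12 (SE 0.48, edgeR adjusted p = 0.129), the lowest among the members and not past the threshold. Without both EtOH libraries numbered 2, which were left out after these values were seen, it was 0.06 (edgeR adjusted p = 0.926).

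Over the 16 members of that cluster the median ratio of EtOH library 2 to library 1 was 1.25 in 10E and 1.39 in 11D. It was 1.19 and 1.18 over the chromosome 17 cluster, 0.920 and 1.14 over the chromosome 7 cluster, 1.15 and 1.15 over all tested members and 1.03 and 0.982 over all genes tested. Both EtOH libraries numbered 2 were above the other 6 libraries for 9 members of 54 and for 12.3% of all genes, so the count of members is near the background. The 9 were Zfp978, Zfp979 and Zfp992 from the chromosome 4 cluster, Zfp945 from chromosome 17, Zfp970 from chromosome 2, and Zfp932, Zfp934, Zfp950 and Zfp974 from outside the clusters. Of these, Zfp934 and Zfp970 are among the 6 lower members, and without both libraries their edgeR adjusted p was 0.166 and 0.108. Without both of these libraries, 3 members were lower (Zfp936, Zfp941 and Zfp977) of 54 tested, and 0 higher, against 3.84% of all genes lower and 6.17% higher, and the member median moved from -0.38 to -0.23. In the same comparison the median moved from -0.38 to -0.09 on chromosome 4, from -0.17 to -0.0036 on chromosome 17 and from -0.74 to -0.75 on chromosome 7. The 2 libraries share the number 2, which the labels do not describe as a batch. The part of these libraries in the washout values of the chromosome 4 members is given by those values; its cause was not tested.

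**Figure D3:**
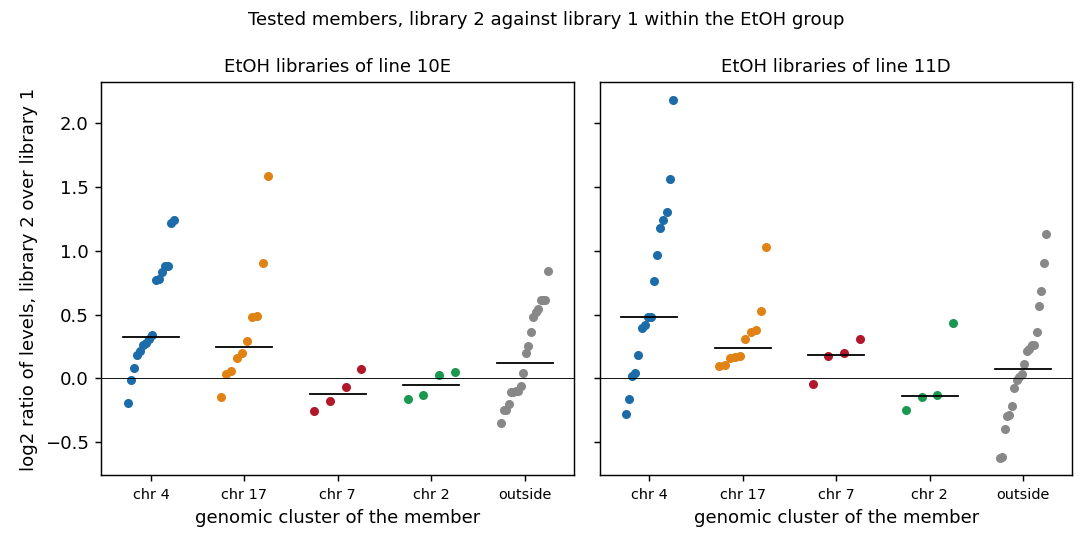
For each tested member, the log2 ratio of its level in EtOH library 2 to that in EtOH library 1, in line 10E (left) and line 11D (right), by genomic cluster; bars are medians. The chromosome 4 members reach highest in 11D (Zfp992, 1.13 against 5.13 CPM per kb), while the median ratio of the chromosome 7 members was 0.920 in 10E and 1.14 in 11D.

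No member passed the test of whether the IAA response differed between lines (edgeR interaction term, 56 members tested, 0 of 16517 genes called, or 0%). At an unadjusted p under 0.05 there were 5 members, 2 with a positive interaction (Zfp933 and Zfp993) and 3 with a negative one (Zfp954, Zfp958 and Zfp964), beside 6.97% and 7.22% of all genes, and DESeq2 called 0. Zfp964 and Zfp954 had the most negative interaction values of the named members. Zfp964, on chromosome 8, went from 0.654 and 1.17 CPM per kb in EtOH to 0.241 and 0.355 in IAA in line 10E, and from 0.671 and 0.862 to 0.886 and 0.963 in line 11D. The groups were apart in both lines, in opposite directions, with an interaction of -1.84 (SE 0.50, log2, 10E minus 11D, edgeR adjusted p = 0.263). Within 10E alone its log2 fold change was -1.50 (edgeR adjusted p = 0.00753) and within 11D alone 0.32 (0.622). For Zfp954 the interaction was -1.36 (SE 0.41, edgeR adjusted p = 0.274). In EtOH, 0 members differed between the lines (0 of 16517 genes, or 0%), and DESeq2 called 0. A negative sign, that is, lower in 10E, was found for 50 of 56 members and 44.7% of all genes. At an unadjusted p under 0.05, 3 members were lower (Zfp947, Zfp950 and Zfp988) and 0 higher, beside 1.39% and 1.06% of all genes.

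The time-course tables give the authors' fits only: a log2 fold change shrunken toward 0, its SE and an adjusted p per gene, with no values per library. Neither the groups that each table compares nor the direction of the difference is stated in the sources used here, so only the sign printed there, positive or negative, is given. In the authors' deposited tables, 0 members of 58 with an adjusted p were called at 0 h (0.0201% of all genes positive and 0.356% negative) and 0 of 56 at 3 h (0.532% and 0.0458%). The members' values at 0 h were all within 5.35e-05 of 0, and at an unadjusted p under 0.05 there were 0 members at 0 h and 2 at 3 h (Zfp963 and Zfp972, authors' deposited tables).

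At 6 h, 1 of 57 members was negative and 0 positive in the authors' deposited table, beside 1.39% and 1.71% of all genes. It was Zfp961, the most abundant member (log2 fold change -0.62, adjusted p = 0.0456, authors' deposited table). A negative sign was found there for 39 of the 57 members, with a median of -0.05, and for 51.2% of all genes.

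At 12 h, 20 of 58 members (34.5%) were negative and 1 was positive in the authors' deposited table. Of all 15901 genes with an adjusted p there, 12.1% were negative and 8.57% positive. Of the other Zfp genes, 57 of 285 were negative and 13 positive. The median log2 fold change in that table was -0.36 over the members, -0.18 over the other Zfp genes and 0.01 over all genes. Sets of genes with like names are counted here as a description, with no test of the share.

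Among those calls, the negative members were spread unevenly over the genome. In the authors' deposited 12 h table, 4 of 4 were negative in the chromosome 7 cluster, 10 of 16 in the chromosome 4 cluster, 1 of 5 in the chromosome 2 cluster, 0 of 10 in the chromosome 17 cluster and 5 of 23 outside these clusters. The median log2 fold changes were -0.90, -0.69, 0.09, -0.14 and -0.15 in the same order, from the authors' deposited table. The mean normalised counts there moved with the calls in part: the median was 2528 on chromosome 7, 1125 on chromosome 4, 638 on chromosome 17 and 282 on chromosome 2, and over the 20 negative members 1755 against 365 over the 37 not called. The part of depth in the difference between clusters was not tested.

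On chromosome 4, Zfp986, whose longest reading frame is short and holds no finger pattern, had the most negative value (-1.37, SE 0.34, adjusted p = 0.000128, authors' deposited 12 h table). Zfp989 (-1.16), Zfp980 (-1.09), Zfp992 (-0.95) and Zfp991 (-0.95) followed in the authors' deposited table. Zfp982, which is known as a regulator of stem cell identity, stood at -0.88 there (SE 0.30, adjusted p = 0.00590, authors' deposited table), followed by Zfp985 (-0.79), Zfp988 (-0.67), Zfp984 (-0.60) and Zfp990 (-0.52). The last 2 lay just inside the threshold in the authors' deposited table, with adjusted p of 0.0495 and 0.0497, and Zfp987 (-0.71) lay just outside with 0.0513. Several of these genes are near copies: Zfp986, Zfp991, Zfp980, Zfp989 and Zfp988 share 86.4%, 86.7%, 71.3%, 71.1% and 68.1% of their 50-base words with another gene, so reads could be lost or traded between them.

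On chromosome 7, Zfp936 (-1.11, SE 0.26, adjusted p = 6.65e-05) and Zfp977 (-1.02, SE 0.30, adjusted p = 0.00118) led in the authors' deposited 12 h table, with Zfp975 at -0.77 and Zfp976 at -0.74. The same cluster had values of -0.40, -0.18, -0.36 and -0.22 for Zfp936, Zfp977, Zfp975 and Zfp976 in the authors' deposited 6 h table, none past the threshold. Outside the chromosome 4 and 7 clusters the negative members were Zfp961 (-1.33, SE 0.28, adjusted p = 1.54e-05), Zfp951 (-1.31), Zfp972 (-1.22), Zfp958 (-1.15), Zfp941 (-0.60) and Zfp930 (-0.59), all from the authors' deposited 12 h table. Zfp961 and Zfp958 shared 0% and 0.648% of their 50-base transcript words with other genes. Introns, which make up most of the counted span, were not compared, and the part of near copies in the calls was not tested. Zfp961 overlaps Gm45694 on its strand.

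Zfp964 was the 1 positive member (0.99, SE 0.34, adjusted p = 0.00667, authors' deposited 12 h table). Its mean normalised count in that table was 95.6, below the 229 of Zfp972, the lowest among the negative members. Its signs were opposite in the 2 washout lines, as were those of Zfp930, Zfp958, Zfp980, Zfp984 and Zfp990 among the named members.

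**Figure D4:**
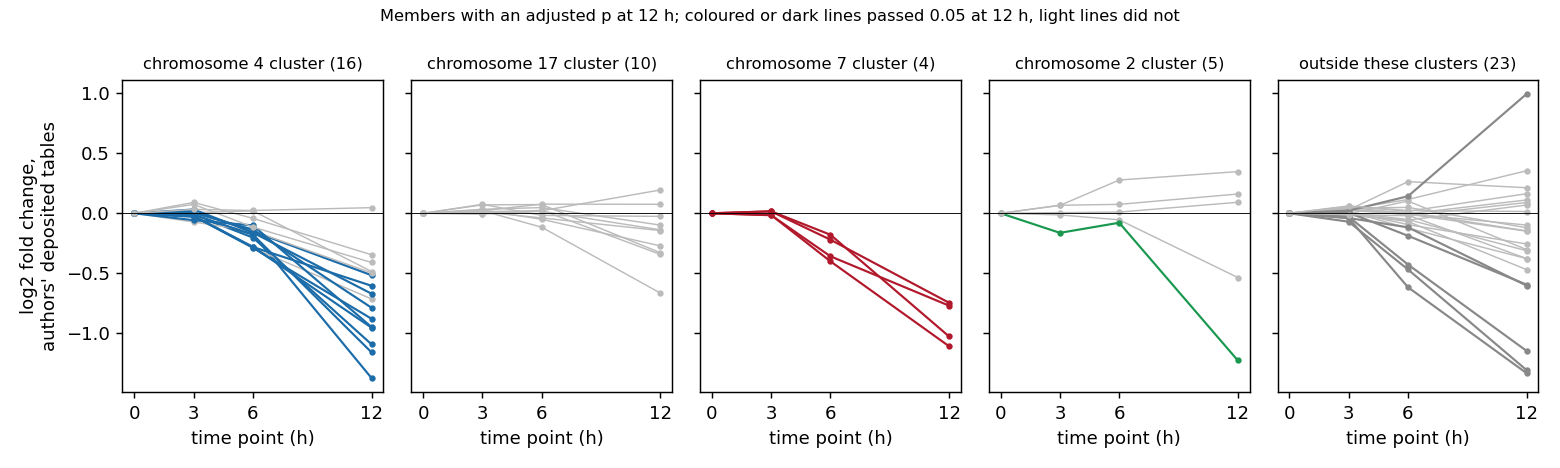
Log2 fold changes of the members from the authors' deposited tables at 0, 3, 6 and 12 h, by genomic cluster, with the number of members in parentheses. Dark or coloured lines passed an adjusted p of 0.05 at 12 h and light lines did not; at 6 h all 4 chromosome 7 members and 14 of 16 on chromosome 4 lie below 0, and chromosome 17 has none past the threshold.

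The 12 h calls and the washout calls come from separate libraries. Of the 6 members lower in the washout, 4 were also negative in the authors' deposited 12 h table (66.7%): Zfp936, Zfp941, Zfp975 and Zfp977. Of these 4, 3 are neighbours in the chromosome 7 cluster. These 4 were 20% of the 20 negative at 12 h. Over all genes, 233 of the 924 lower in the washout with an adjusted p at 12 h were negative there (25.2%), which is 12.5% of those negative at 12 h and tested in the washout. With 6 members the shares are given as a description. The 20 had a median of -0.95 in the authors' deposited 12 h table and of -0.39 in the washout, where all 20 had a negative sign, from -1.12 (Zfp992) to -0.11 (Zfp930). That sign was common to 52 of the 54 members, and it was found for 68.0% of the 1869 genes that were negative at 12 h and tested in the washout. Without both EtOH libraries numbered 2, 7 of the 20 had a positive washout sign (Zfp930, Zfp951, Zfp958, Zfp982, Zfp984, Zfp990 and Zfp992) and 13 a negative one. The edgeR adjusted p of the 16 not lower in the washout ran from 0.116 (Zfp976) to 0.778 (Zfp958). For Zfp961 the washout log2 fold change was -0.18 (SE 0.16, edgeR adjusted p = 0.464) and the 12 h value -1.33 (authors' deposited table); for Zfp986 they were -0.35 (SE 0.25, 0.351) and -1.37, and for Zfp972 -0.44 (SE 0.27, 0.271) and -1.22. Since the 12 h values are shrunken and their contrast is not stated, the sizes are set side by side and were not compared by a test. Zfp970 went the other way in sign, at 0.35 in the authors' deposited 12 h table (adjusted p = 0.260) and lower in the washout, and Zfp934 stood at -0.30 in the 12 h table (adjusted p = 0.379, authors' deposited table).

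**Figure D5:**
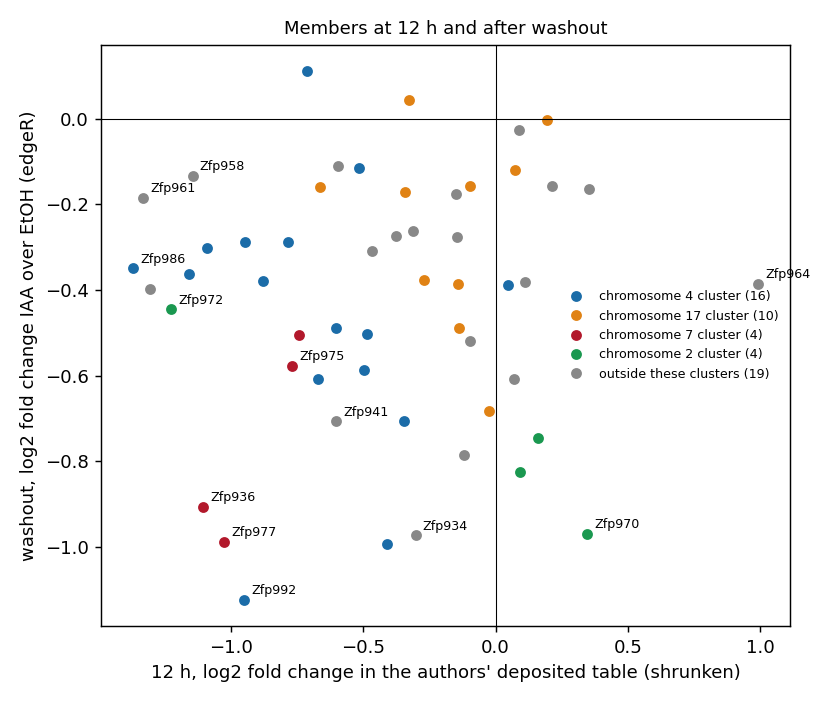
Each point is a member: the horizontal axis is the shrunken log2 fold change at 12 h in the authors' deposited table and the vertical axis the edgeR log2 fold change of IAA over EtOH after washout, coloured by genomic cluster. Zfp977 and Zfp936 are low on both axes, Zfp961 and Zfp986 are low on the horizontal axis alone, and Zfp970 lies to the right of 0.

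By promoter, the 16 members with the shared word and the 38 with a promoter but no word were set side by side. Of those tested in the washout, 4 of 11 with the word were lower (Zfp936, Zfp970, Zfp975 and Zfp977) and 1 of 34 without it (Zfp941). In the same test 7.6% of all genes were lower. The washout medians were -0.58 and -0.29. In the authors' deposited 12 h table, 6 of 12 with the word were negative (Zfp936, Zfp951, Zfp972, Zfp975, Zfp976 and Zfp977). Without it 8 of 35 were negative, beside 12.1% of all genes. The medians there were -0.64 and -0.27. Members with no RefSeq promoter are in neither set. Among them, Zfp930, Zfp986, Zfp989, Zfp990, Zfp991 and Zfp992 were negative at 12 h in that table, and Zfp934 was lower in the washout. All of these but Zfp930 and Zfp934 lie in the chromosome 4 cluster. Of the 16 holders, 9 lie in the chromosome 2 cluster and 4 in the chromosome 7 cluster, and for these 13 neighbourhood and the word cannot be told apart. The other 3, Zfp932, Zfp950 and Zfp951, lie outside the clusters; Zfp951 was negative at 12 h in the authors' deposited table, and none of the 3 was lower in the washout. Zfp971, Zfp931, Zfp970 and Zfp950 hold the word and had positive signs at 12 h in the authors' deposited table, none past the threshold.

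Transcripts upstream of promoters were listed for 60 members at each time and were rare. The median mean normalised count was 0 at 0, 6 and 12 h and 0.0814 at 3 h in the authors' deposited tables. At 12 h, 8 had an adjusted p and 0 were called, against 3.11% of all such transcripts positive and 1.93% negative, and at an unadjusted p under 0.05 there was 1, at Zfp933 (log2 fold change -1.65, adjusted p = 0.0842, authors' deposited table). None was called at 0, 3 or 6 h among the 25, 35 and 8 members that had an adjusted p in the authors' deposited tables. Of all such transcripts there, 0% were positive and 0.00821% negative at 0 h. At 3 h the shares were 0% and 0%, and at 6 h 0.122% and 0%.

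Genes of the corepressor route that KRAB zinc finger proteins recruit were measured in the same libraries. Of 30 symbols listed for the KRAB corepressor and H3K9 pathway, 29 were tested in the washout, and the symbol Fam208a had no value in any comparison. Of the 29, 4 rose (13.8%) while 0 fell, beside 8.83% and 7.6% of all genes, with a list median of 0.23 against -0.05 over all genes. The 4 were Chd4, a chromatin remodeller of the NuRD complex (log2 fold change 1.17, SE 0.21, edgeR adjusted p = 0.00373), Trim28 (1.02, SE 0.20, 0.00678), Setdb1 (0.79, SE 0.15, 0.00605) and Ehmt2, the H3K9 methyltransferase G9a (0.65, SE 0.18, 0.0307). Chd4, Trim28 and Setdb1 kept the call without both EtOH libraries numbered 2, and Ehmt2 did not.

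In the authors' deposited 12 h table, 9 of the 29 were negative (31.0%) and 0 positive, beside 12.1% and 8.57% of all genes, with a list median of -0.16 against 0.01 over all genes. They were Sumo2 (-1.77), Atrx (-1.22), Morc3 (-1.18), Cbx3, which encodes HP1 gamma (-1.17), Smarcad1 (-1.01), Tasor of the HUSH complex (-0.94), Atf7ip, a SETDB1 partner (-0.75), Kdm1a (-0.71) and Ehmt1 (-0.71), all from the authors' deposited table. Trim28 (0.07) and Setdb1 (-0.06) were not called there. At 6 h, 2 of the 29 were negative (6.9%) and 0 positive, beside 1.39% and 1.71% of all genes. They were Cbx3 (-0.65, adjusted p = 0.00548) and Sumo2 (-0.87, adjusted p = 0.0136), in the authors' deposited table.

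A list of 12 KRAB zinc finger genes with known targets outside the Zfp900 series gave 7 negative of 11 at 12 h in the authors' deposited table, where 12.1% of all genes were negative. Among them were Zfp600 (-1.29) and Rex2 (-1.05), both kin of the chromosome 4 members, Zfp57, which guards imprinted loci (-0.69), and Zfp809, which silences retroviruses at their primer binding site (-0.54). In the washout 1 of 10 fell, near the 7.6% of all genes. It was Gm15446 (log2 fold change -0.97, SE 0.20, edgeR adjusted p = 0.00843), which shares 42.6% of the words of Zfp932. Zfp932 itself had 1.03, 1.18, 1.17 and 1.27 CPM per kb in EtOH and 0.665, 0.493, 1.03 and 0.915 in IAA (log2 fold change -0.52, SE 0.23, edgeR adjusted p = 0.136); it was singled out for that kinship.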

How the data were processed

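The members and the gene lists were chosen with earlier results of these data known. The washout values are read-pair counts per gene that the authors deposited; per the file headers they were made with featureCounts 2.0.1 over whole genes, by gene name, reverse-stranded, with both ends mapped. Counts of 6547992 to 16554314 per library set the precision. STAR, deepTools and the mm10 build are listed in the submitters' processing notes. The time-course tables, and 1 for the washout, hold the authors' deposited log2 fold changes, p-values and adjusted p-values. They also hold a mean normalised count per gene, a signal averaged over libraries by the authors. The enhancer and DNase-site tables were not used here.

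The 4 IAA libraries were tested against the 4 EtOH libraries with edgeR 4.0.16 in R 4.3.3 (quasi-likelihood, two-sided, TMM, filterByExpr, no block, Benjamini-Hochberg over all genes). Line by treatment and line in EtOH were fitted in a model of 4 groups. Levels are TMM-scaled CPM per kb of gene body. Line pairs the libraries by design. Library numbers did not: libraries of the same line and number correlated at 0.346, -0.498, -0.314 and -0.0275 in their deviations from the group means. Reading frames are the longest in GENCODE M21 transcripts. A finger pattern is a pair of cysteines 2 to 4 residues apart, 12 residues, and a pair of histidines 3 to 5 apart. The scripts were tested on simulated data. Alternatives were RLE scaling, no filter, DESeq2 1.42.0, blocks, omitted loci over 0.5% of counts, omitted libraries and a threshold of 0.01.

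Members were named where past 0.05 in the edgeR washout test or a time-course table, or among the 10 most abundant, which gave 24. Zfp931 and Zfp945, past 0.05 only in the authors' deposited washout table, were outside these 24 and outside the outlier and sign checks; other names were chosen after their values were seen.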

Additional observations from a re-analysis of the deposited data

Results flagged for a closer look

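In 3 of the 48 groups of 4 libraries examined (24 named members, 2 treatments), 1 library stood apart from the other 3 by Dixon's test, where the gap to the nearest library is a larger part of the range than the critical value allows. Chance alone flags about 1 in 20 such groups. For Zfp934 in IAA, 10E library 1 was low at 0.0619 CPM per kb beside 0.0994, 0.104 and 0.105. For Zfp954 in EtOH, 10E library 2 was high at 3.43 beside 2.37, 2.39 and 2.45. For Zfp970 in EtOH, 11D library 2 was high at 0.972 beside 0.720, 0.745 and 0.758.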

How the results depend on the processing

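Members lower in the washout numbered 6 in the fit reported and under RLE scaling, without loci over 0.5% of counts, and with a replicate block of line. There were 4 with a replicate block of line and library number, 8 under DESeq2, 13 with no low-count filter, 2 at an adjusted p under 0.01, and 3 to 7 when single libraries were left out. Among the settings chosen after seeing the data, there were 3 without both EtOH libraries numbered 2, 7 without both numbered 1, 6 in line 10E alone and 2 in line 11D alone. No member was higher under any of these. The share of all genes lower is given above for the fit reported, DESeq2 and the fit without both EtOH libraries numbered 2. For the other settings it is not given here, so their counts of members are not set against a background. The interaction called 0 members, but 1 (Zfp964) with no low-count filter; the line contrast in EtOH called 0 throughout. The single negative call at 6 h became 0 when p-values were adjusted over all genes with a p-value and 0 at 0.01. At 12 h the negative calls ran from 14 to 21, and the share of all genes is given above for the reported calls alone. None of the 6 members called lower in the washout changed sign. Signs of named members that were not called changed as follows. Without both EtOH libraries numbered 2 the log2 fold changes were 0.028 (Zfp930), 0.038 (Zfp951), 0.20 (Zfp958), 0.14 (Zfp982), 0.17 (Zfp984), 0.058 (Zfp990) and 0.0555 (Zfp992). In line 11D alone they were 0.14 (Zfp930), 0.21 (Zfp958) and 0.32 (Zfp964), and in line 10E alone 0.071 (Zfp980), 0.096 (Zfp984) and 0.19 (Zfp990). With single libraries left out they ran from -0.24 to 0.016 (Zfp930), from -0.34 to 0.054 (Zfp958), from -0.59 to 0.0037 (Zfp982) and from -0.22 to 0.061 (Zfp990). The cause of these changes was not tested. The shallowest library held 6547992 counts, and members with few counts could not be tested.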
